A study of Mus musculus with 20 samples.

Results

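Embryos exposed to mono-2-ethylhexyl phthalate (MEHP) that showed no neural tube defect (NTD) were compared with control embryos that also showed none. Each group had 3 arrays, so the comparison used 6 of the series' 20 arrays, and 20794 genes were tested. All were whole CD-1 mouse embryos whose conceptuses were taken from untreated dams and grown for 24 h in whole embryo culture, in which the embryo stays inside its membranes in a bottle of medium. Control medium held 0.01% dimethyl sulfoxide and exposed medium held 100 µg/ml MEHP. On gestational day 9 each embryo was dissected away from its visceral yolk sac, and total RNA was hybridised to an Affymetrix array. The labels tell neither how many embryos went into a sample nor their litters, so the p-values cover the spread among the arrays, which may be technical. The arrays were chosen by the groups that the authors' own exposure and NTD tables use. Of 1022 ways to part the 10 embryo arrays, the exposure split used here matched the authors' deposited log2 differences with a largest error of 6.0e-15, against 0.399 for the next best split. The NTD split used here matched with a largest error of 6.2e-15, against 0.351 for the next best. The headings of the other deposited value table were not followed. They disagree on the group of 3 of the 6 compared arrays and on the tissue of 1, and these 3 are the whole MEHP group. In those headings MEHP 1 and MEHP 2, numbered in table order, are exposed embryos with NTD. MEHP 3 is a control yolk sac without NTD.

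MEHP is the monoester that the body makes from the plasticizer di-2-ethylhexyl phthalate. In rodent liver it acts as a peroxisome proliferator: it activates the nuclear receptor PPAR-alpha, which pairs with a retinoid X receptor, binds repeats of a short DNA half-site and raises genes of fatty acid oxidation. During the culture window the neural folds of a mouse embryo rise and fuse, the heart tube begins to beat, the first somites form and neural crest cells leave the dorsal neural tube. The comparison asks which transcripts differ with exposure in embryos that showed no NTD.

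Values are deposited log2 signals, on which a difference of 1 is 2-fold, and levels of different genes cannot be set against each other. Markers of the embryo's own tissues bore out the tissue label of the arrays, but they do not tell NTD status. On the MEHP arrays the log2 summed level of the neural markers was 12.16, 12.15 and 12.21, against a mean of 6.66 in control yolk sacs. That of the heart markers was 13.33, 13.40 and 13.39, against 7.67. All 6 neural, 5 heart, 4 somite and 4 neural crest markers had a higher mean in control embryos than in control yolk sacs, although the somite factor Tbx6 and the crest factor Foxd3 lay within 1 log2 unit of the nonspecific level described next. The 9 probe sets that match no mouse transcript, which measure nonspecific signal, had a mean of 4.048, 3.931 and 3.918 on the control arrays and 3.801, 3.704 and 3.712 on the MEHP arrays. The groups did not overlap in this measure, and in table order every control comes before every MEHP array, so exposure, nonspecific level and array order cannot be told apart. Markers of visceral endoderm, the yolk sac epithelium, had a log2 summed level of 9.21, 11.95 and 9.80 in controls and 9.85, 10.28 and 12.31 with MEHP, against a mean of 15.79 in control yolk sacs. Control 2 and MEHP 3 therefore stood apart from the other 4 arrays, 1 in each group, and the part of visceral endoderm in the results was not tested. Sex-linked transcripts also varied from array to array. Xist, the RNA that coats the inactive X chromosome, was at 11.38, 11.95 and 5.52 in controls and 11.94, 11.12 and 12.24 with MEHP. The Y-linked Ddx3y was at 6.65, 3.68 and 8.75 in controls and 3.72, 7.86 and 3.64 with MEHP, so control 1 and MEHP 2 carried both.

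**Figure D1:**
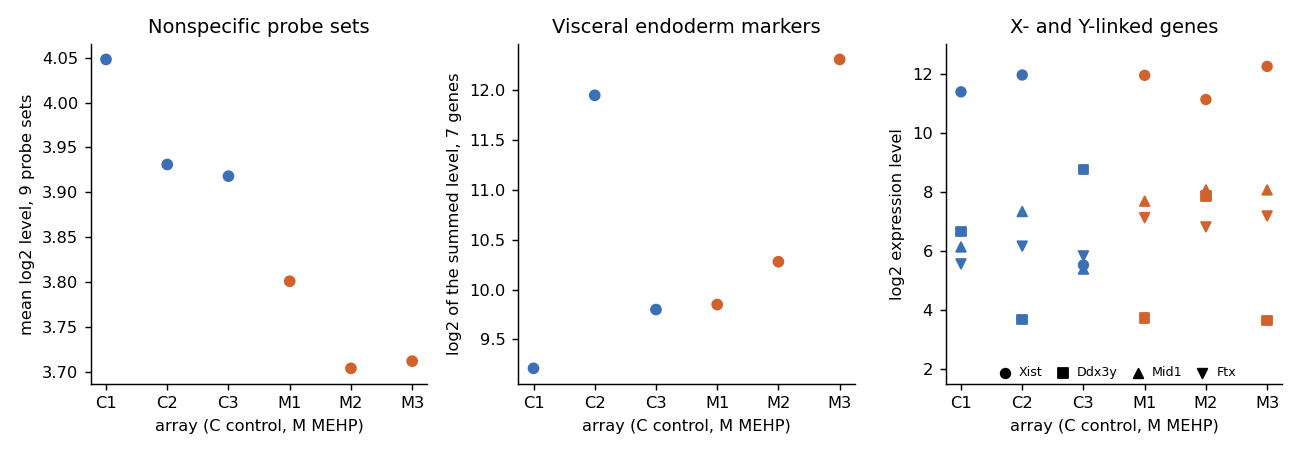
Each point is 1 array (C control, M MEHP, without NTD); the panels show the mean log2 level of the 9 nonspecific probe sets, the log2 summed level of 7 visceral endoderm markers, and the log2 levels of Xist, Ddx3y, Mid1 and Ftx. The nonspecific level is lower on all 3 MEHP arrays, the visceral endoderm level is highest in C2 and M3, and Xist is low in C3 alone.

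Of the 20794 genes, 2021 (9.72%) differed between MEHP and control embryos at an adjusted p below 0.05 by limma, 794 rising (3.82%) and 1227 falling (5.9%). Rises were the larger changes. Among the rises 62 exceeded 1 log2 unit, and among the falls only Creb3l3 did. The median rise was 0.49 and the median fall -0.37, while the median of all genes was -0.04. The direction depended on how bright a gene was. Genes whose mean level over the 20 arrays lay below that of the median gene (5.72), called dim here, accounted for 1011 falls and 213 rises. Of 2079 genes at a level of 3.94 to 4.34, 28 rose and 252 fell, with a median change of -0.15, and of 2080 genes at 6.73 to 7.62, 137 rose and 43 fell, with a median change of 0.06. The nonspecific level was lower on the MEHP arrays in the same direction as the dim genes, and its part in their falls was not tested beyond a fit with it as a covariate, which left 0 genes past the threshold (1522 at an unadjusted p below 0.05). Without dim genes 488 genes passed and 73.2% of them rose, and under quantile normalization 29.3% of 1729 rose, against 39.3% here. Only 229 genes (1.1%) passed without each of the 6 arrays in turn, 123 rises and 106 falls, and 169 passed when control 2 and MEHP 3 were both left out, which leaves 2 arrays a group. Without MEHP 2 alone 286 genes passed. Annotated long noncoding RNAs made up 3.65% of rises, 8.15% of falls and 5.54% of all genes tested.

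**Figure D2:**
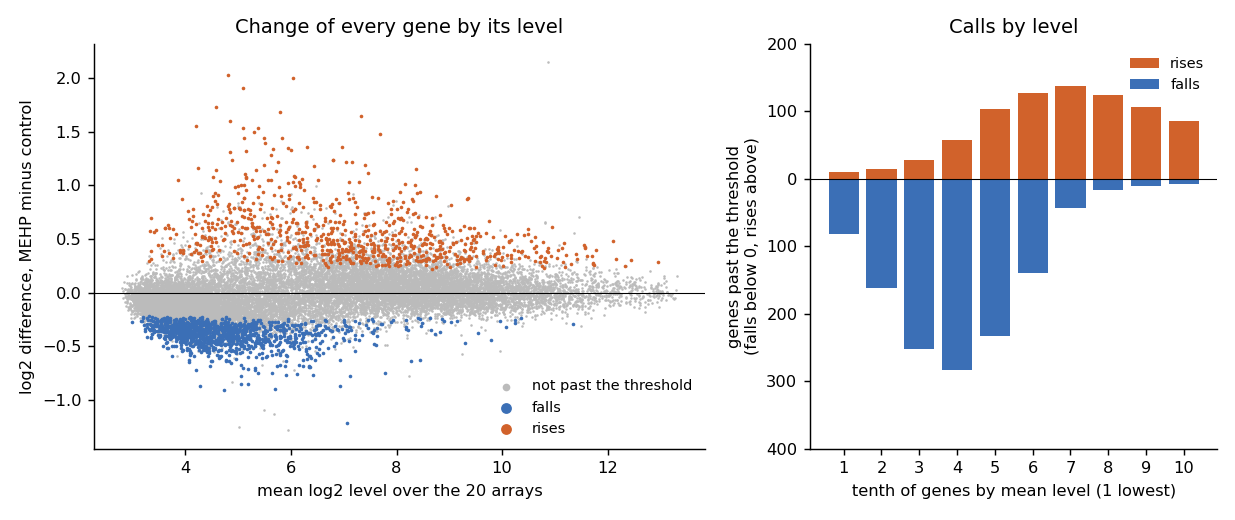
Left, the log2 difference (MEHP minus control) of each of 20794 genes against its mean log2 level over the 20 arrays, with rises and falls past the threshold in colour; right, the number of rises and falls in 10 equal groups of genes ordered by level. Falls outnumber rises in the lower 6 groups and rises outnumber falls in the upper 4.

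Several noncoding RNAs were among the largest rises. The rule for naming them took the 12 largest rises and 12 largest falls among genes past the threshold that have a gene name and are above the median gene in the higher group. Kcnq1ot1, the paternally expressed antisense RNA that silences its imprinted neighbours on chromosome 7, was at 6.90, 7.41 and 6.63 in controls and 8.29, 8.43 and 8.65 with MEHP. The groups did not overlap and the rise was 2.79-fold (1.48 ± 0.17 log2 units, SE, adjusted p = 0.00338). It passed without each array in turn, and 4 of its 5 probe sets were higher with MEHP by 0.72 to 1.48 and the fifth by 0.15, with 3 of them past the threshold when every probe set was tested by itself. Of its protein-coding neighbours, Cdkn1c (-0.09 ± 0.07, adjusted p = 0.475), Phlda2 (0.41 ± 0.17, adjusted p = 0.138) and Kcnq1 (-0.15 ± 0.12, adjusted p = 0.423) did not pass. Slc22a18 did not pass either (0.01 ± 0.07, adjusted p = 0.934), but its second probe set fell when every probe set was tested by itself (-0.47 ± 0.10, adjusted p = 0.0178). Snhg3, a host RNA of small nucleolar RNAs, was at 8.17, 8.06 and 7.77 in controls and 9.15, 8.99 and 9.34 with MEHP. All 3 exposed arrays lay above all controls, by 2.23-fold (1.16 ± 0.12, adjusted p = 0.00306), and the call held without each array. Mir99ahg, the host transcript of a microRNA cluster, was at 5.51, 5.91 and 5.18 in controls and 6.59, 7.27 and 7.07 with MEHP (1.44 ± 0.23, adjusted p = 0.00948). Its second probe set rose as well (0.62 ± 0.13). Ftx, a noncoding gene of the X-inactivation centre, was at 5.56, 6.16 and 5.83 in controls and 7.12, 6.81 and 7.18 with MEHP (1.19 ± 0.18, adjusted p = 0.0093). Xist itself did not pass (2.149 ± 1.297, adjusted p = 0.302), and of 651 X-linked genes 24 rose and 28 fell with a median of -0.03. The part of the arrays' spread in Xist in the changes of X-linked genes was not tested. The largest rises of any kind were uncharacterised transcripts. D10Ertd755e was at 4.52, 5.28 and 4.28 in controls and 6.52, 6.77 and 6.89 with MEHP, 4.09-fold higher (2.03 ± 0.21, adjusted p = 0.00319). D13Ertd787e (1.91 ± 0.22, adjusted p = 0.00338) also held without each array, while 1700023H06Rik (mean level 5.58 in controls and 7.58 with MEHP, SE of the change 0.41, adjusted p = 0.0212) passed in 2 of those 6 fits and its second probe set was lower by 0.24 (-0.24 ± 0.09), short of the threshold.

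The other large rises were in genes of different kinds. Mid1, an X-linked gene for a microtubule-bound ubiquitin ligase, was at 6.13, 7.33 and 5.38 in controls and 7.68, 8.06 and 8.06 with MEHP. The controls spread widely, with the lowest value in control 3, where Xist was also lowest, and the rise (1.65 ± 0.37, adjusted p = 0.0263) passed in 2 of the 6 fits without 1 array. Galc, the lysosomal enzyme that breaks down galactosylceramide, was at 4.62, 5.70 and 5.996 in controls and 6.51, 7.05 and 6.83 with MEHP (1.36 ± 0.29, adjusted p = 0.0224). Insm1, a zinc finger factor of neuronal and endocrine precursors, was at 5.59, 5.82 and 6.34 in controls and 7.33, 7.22 and 6.90 with MEHP (1.23 ± 0.25, adjusted p = 0.021). Myf5, the first myogenic factor of the somite, was at 4.59, 4.996 and 5.37 in controls and 6.42, 6.31 and 5.73 with MEHP (1.17 ± 0.22, adjusted p = 0.017). In these 3 genes the groups did not overlap, but without 1 array the highest adjusted p was 0.0847, 0.0752 and 0.0667. Zfp317, a zinc finger gene, was at 5.65, 5.77 and 6.18 in controls and 6.83, 7.09 and 6.86 with MEHP (1.06 ± 0.13, adjusted p = 0.00515). Xpo4, a nuclear exportin, was at 5.43, 5.94 and 5.46 in controls and 6.52, 6.62 and 6.76 with MEHP (1.02 ± 0.13, adjusted p = 0.00515). Fbxl7, an F-box gene, was at 6.43, 6.68 and 5.93 in controls and 7.16, 7.41 and 7.52 with MEHP (1.02 ± 0.16, adjusted p = 0.00992). These 3 held without each array. Dep1, listed as diabetic embryopathy 1 and of no stated transcript type, held as well (1.54 ± 0.23, adjusted p = 0.00848).

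The largest fall was in a lipid regulator. Creb3l3, a membrane-bound transcription factor of liver and gut lipid metabolism that PPAR-alpha induces in liver, was at 6.22, 6.08 and 5.71 in controls and between 4.61 and 4.93 with MEHP. No exposed array reached the lowest control, a difference of 2.33-fold (-1.22 ± 0.16, adjusted p = 0.00606), and the call held without each array. Csf2rb, the shared receptor chain for interleukin 3, interleukin 5 and GM-CSF, was at 7.12, 7.25 and 7.05 in controls and 6.41, 6.39 and 6.01 with MEHP (-0.87 ± 0.15, adjusted p = 0.0119). Its second probe set fell too (-0.45 ± 0.08), though mouse has a near-identical copy of this gene whose signal the probes may share. Zap70, the T cell receptor kinase, was at 6.75, 6.68 and 6.57 in controls and 5.92, 5.95 and 6.04 with MEHP (-0.70 ± 0.08, adjusted p = 0.00332), and its second probe set fell by 0.35 (-0.35 ± 0.08). Htr1b, a serotonin receptor, was at 6.31, 6.17 and 6.13 in controls and 5.51, 5.29 and 5.49 with MEHP (-0.77 ± 0.10, adjusted p = 0.00589). Slc7a4, of the cationic amino acid transporter family, was at 6.14, 6.04 and 6.28 in controls and 5.54, 5.47 and 5.39 with MEHP (-0.69 ± 0.08, adjusted p = 0.00335). Both held without each array, as did Golga7b (-0.69 ± 0.08) and Plekhg6 (-0.68 ± 0.10). Aldh1l2, the mitochondrial 10-formyltetrahydrofolate dehydrogenase, was at 6.08, 6.64 and 6.18 in controls and 5.40, 5.31 and 5.48 with MEHP (-0.90 ± 0.23, adjusted p = 0.0399), but it passed in 0 of the 6 fits without 1 array. Slco2a1, a prostaglandin transporter (-0.77 ± 0.20), Tcea2, a transcription elongation factor (-0.76 ± 0.14), the membrane protein gene Tmem144 (-0.75 ± 0.14) and Derl3, of the degradation machinery of the endoplasmic reticulum (-0.68 ± 0.15), passed in 1, 4, 4 and 2 of those fits. In all 24 genes the 3 exposed and 3 control arrays did not overlap. This also held for 2017 of the 2021 genes past the threshold and for 35.2% of all genes. As the 24 were picked from genes past the threshold, the lack of overlap adds no support to them.

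**Figure D3:**
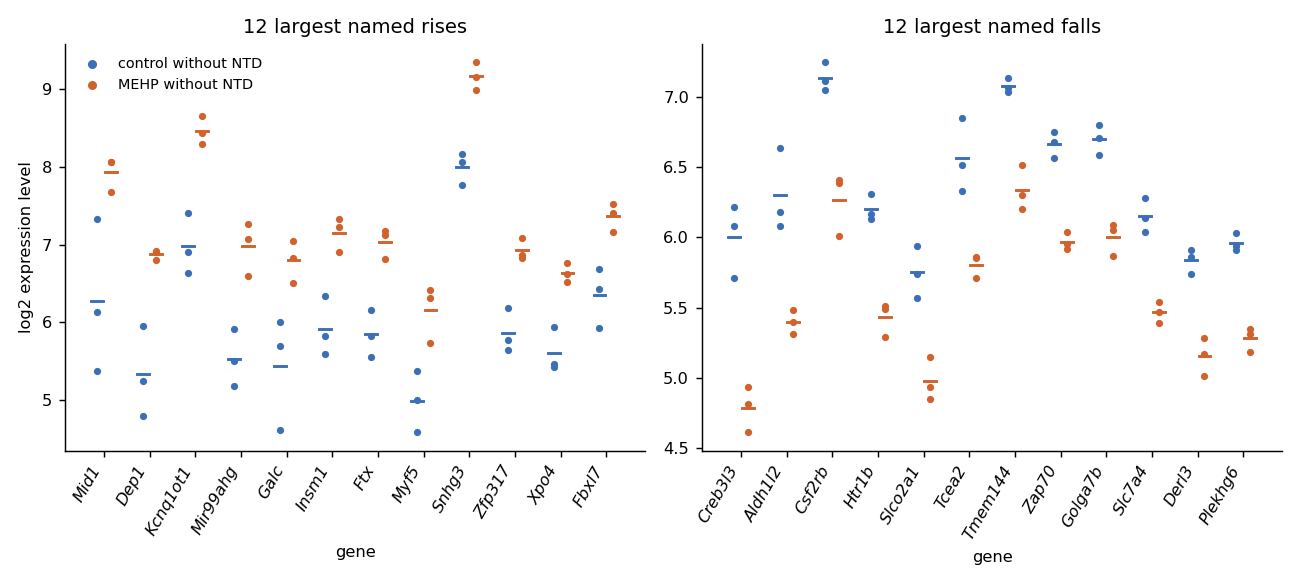
Log2 level on each array of the 12 largest named rises and 12 largest named falls, with points for the 3 control and 3 MEHP arrays without NTD and a line at each group mean. The groups of points do not overlap in any of the 24 genes, and the controls of Mid1 spread from 5.38 to 7.33.

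Several of these changes rest on 1 of a gene's probe sets. Of the 12 largest rises 8 have other probe sets, and another one rose past the threshold for Kcnq1ot1 and Mir99ahg only. Mid1's other probe sets were at -0.08 and -0.12, Galc's at -0.12 and -0.03, Dep1's at -0.13 and Fbxl7's at 0.14, -0.12 and 0.02, none past the threshold. Of the 12 largest falls 7 have other probe sets, and another one fell past the threshold for Csf2rb and Zap70 only. Over all genes with a second probe set its direction matched the first in 62.1% of 9698, and it also passed in 7.76%. Among rises it matched in 69.3% of 472 and also passed in 14.4%, and among falls in 82.7% of 474 and 12%.

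Of 38 measured genes that PPAR-alpha controls in liver, Hadhb and Pex11a rose, Creb3l3, Cidea and Plin4 fell and 33 did not pass. Thus 5 of the 38 passed, against 9.72% of all genes, with a median change of -0.03 against -0.04 for all genes. Hadhb, the beta subunit of the mitochondrial trifunctional protein of fatty acid oxidation, was at 9.76, 10.09 and 10.11 in controls and 10.59, 10.54 and 10.38 with MEHP (0.51 ± 0.10, adjusted p = 0.0197), but its other probe sets were at 0.02 and 0.03. Pex11a, a peroxisome division gene, was at 5.82, 5.78 and 5.75 in controls and 6.12, 6.06 and 6.004 with MEHP (0.28 ± 0.08, adjusted p = 0.0458). The lipid droplet genes Cidea (-0.27 ± 0.07, adjusted p = 0.0345) and Plin4 (-0.23 ± 0.06, adjusted p = 0.0434) are dim, and with Pex11a they passed in 0 of the 6 fits without 1 array. The peroxisomal bifunctional enzyme Ehhadh (0.15 ± 0.13, adjusted p = 0.466), Cyp4a14 (-0.14 ± 0.08, adjusted p = 0.26) and the carnitine carrier Slc25a20 (0.20 ± 0.09, adjusted p = 0.181) did not pass. Of 16 PPAR and partner receptors, Ppara (-0.03 ± 0.09, adjusted p = 0.863), Ppard (0.18 ± 0.08, adjusted p = 0.173) and Pparg (-0.12 ± 0.07, adjusted p = 0.298) did not pass either, and Nr1i3, the xenobiotic receptor CAR, fell by 0.35 on the log2 scale from a level near the nonspecific one.

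The promoters of the PPAR target genes with the largest fall and both rises are shown to let the binding letters be read beside those values. They are 300 bases around the annotated start from RefSeq (GRCm38.p6), with each match to the half-site AGGTCA, on either strand, in capitals.
Creb3l3, chr10:81092542-81092841, minus strand: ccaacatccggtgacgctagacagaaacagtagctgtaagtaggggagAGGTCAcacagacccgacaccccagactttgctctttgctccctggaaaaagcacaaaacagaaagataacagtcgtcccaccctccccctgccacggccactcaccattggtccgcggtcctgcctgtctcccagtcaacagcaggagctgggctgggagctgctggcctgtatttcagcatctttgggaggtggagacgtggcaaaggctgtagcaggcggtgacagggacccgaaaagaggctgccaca
Creb3l3, chr10:81098823-81099122, minus strand: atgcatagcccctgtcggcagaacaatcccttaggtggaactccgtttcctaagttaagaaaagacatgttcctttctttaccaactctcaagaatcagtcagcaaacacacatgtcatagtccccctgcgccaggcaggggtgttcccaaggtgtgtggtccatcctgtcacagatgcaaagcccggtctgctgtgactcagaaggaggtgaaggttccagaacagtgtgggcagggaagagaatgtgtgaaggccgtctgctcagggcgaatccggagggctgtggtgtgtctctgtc
Hadhb, chr5:30155003-30155302, plus strand: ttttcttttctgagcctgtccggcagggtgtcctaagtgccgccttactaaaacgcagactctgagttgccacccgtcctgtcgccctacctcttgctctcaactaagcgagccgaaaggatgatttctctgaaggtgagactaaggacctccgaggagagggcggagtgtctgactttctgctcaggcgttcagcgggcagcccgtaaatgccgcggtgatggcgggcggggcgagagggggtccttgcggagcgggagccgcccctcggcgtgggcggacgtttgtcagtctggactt
Pex11a, chr7:79743082-79743381, minus strand: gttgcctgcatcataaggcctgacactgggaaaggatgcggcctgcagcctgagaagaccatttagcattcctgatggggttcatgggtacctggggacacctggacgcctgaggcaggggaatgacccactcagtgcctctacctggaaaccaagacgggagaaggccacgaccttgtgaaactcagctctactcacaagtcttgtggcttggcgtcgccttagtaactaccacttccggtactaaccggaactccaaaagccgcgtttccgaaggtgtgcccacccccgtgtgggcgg
Etohd2, chr13:59769716-59770015, plus strand: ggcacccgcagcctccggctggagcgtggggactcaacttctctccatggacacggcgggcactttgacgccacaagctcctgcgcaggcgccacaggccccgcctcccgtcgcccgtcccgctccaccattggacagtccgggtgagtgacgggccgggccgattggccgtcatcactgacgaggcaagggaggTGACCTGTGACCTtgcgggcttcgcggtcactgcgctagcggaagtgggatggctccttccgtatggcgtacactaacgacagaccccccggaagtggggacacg
Creb3l3 has 2 annotated starts, and 1 of its windows held a single half-site. No half-site lay in the windows of Hadhb and Pex11a. The half-site occurred in 16.3% of all 32851 promoters in the table, in 14.1% of 18251 promoters of measured genes, in 11.7% of 633 promoters of rises, in 19.5% of 1010 promoters of falls and in 35.3% of 34 promoters of PPAR target genes. The full element, named DR1, holds the half-site 2 times in the same direction with 1 base of any kind between them. It occurred in 0.0396% of all promoters and in 0 of the 34 promoters of PPAR target genes. Among promoters of falls it occurred in 0, and among those of rises in 1. That 1 is Etohd2, listed as ethanol decreased 2, chosen after its values were seen and shown last above with the repeat on the other strand. Etohd2 was at 4.18, 4.21 and 4.08 in controls and rose by 0.39 (0.39 ± 0.07, adjusted p = 0.017), and it is a dim gene.

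Xenobiotic metabolism genes were lower where they changed. Of 27 measured, 0 rose and 7 fell (Cyp2b10, Abcc3, Sult1a1, Cyp1a2, Cyp2c29, Cyp1a1 and Cyp2e1), with a median of -0.20. That is 25.9% past the threshold, against 9.72% of all genes, and 20 of the 27 are dim. Cyp2b10, a phenobarbital-inducible cytochrome P450, was at 5.43, 4.91 and 4.86 in controls and 4.42, 4.46 and 4.65 with MEHP (-0.56 ± 0.14, adjusted p = 0.0364). Abcc3, an export pump for organic anions, was at 4.21, 4.38 and 4.40 in controls and 3.85, 3.90 and 3.87 with MEHP (-0.46 ± 0.08, adjusted p = 0.0137). None of the 7 passed without each array in turn. Their control means, from 4.07 for Cyp1a1 to 5.07 for Cyp2b10, lie not far above the nonspecific level of 3.918 to 4.048, which was itself lower with MEHP; its part in these falls was not tested. Genes of adult sense organs, skin and sperm were taken as transcripts that an embryo of this age should lack. They had 0 rises and 5 falls of 40 (12.5%), among them the taste receptor Tas1r2 (-0.48 ± 0.09), with a median of -0.15.

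Of 68 measured genes of neural tube closure 6 rose, 0 fell and 62 did not pass, with a median of 0.07. The share past the threshold was 8.82%, near the 9.72% of all genes. Only 7 of the 68 are dim, and among all genes that are not dim 581 rose and 216 fell. Lrp2, the endocytic receptor megalin, was at 6.18, 6.55 and 6.08 in controls and 7.25, 7.32 and 7.26 with MEHP, a 2.01-fold rise (1.01 ± 0.13, adjusted p = 0.00518). Its second probe set rose as well (0.79 ± 0.18) and the call held without each array. Lrp2 is also a visceral endoderm gene and was highest among controls in control 2, and the part of visceral endoderm in its rise was not tested. Pax3, a factor of the dorsal neural tube and crest, was at 7.44, 7.37 and 7.56 in controls and 7.92, 7.94 and 7.96 with MEHP, a 1.41-fold rise (0.49 ± 0.07, adjusted p = 0.0074) shared by its second probe set (0.40 ± 0.11). The integrin subunit gene Itgb1 (0.38 ± 0.08), the dorsal factor Zic5 (0.36 ± 0.09) and the FGF receptor Fgfr1 (0.24 ± 0.07) passed with adjusted p of 0.0199 to 0.0446 and in at most 1 of the 6 fits without 1 array. Another probe set of Itgb1, below the nonspecific level, fell (-0.35 ± 0.10, adjusted p = 0.0489). The planar polarity genes Vangl2 (-0.03 ± 0.07, adjusted p = 0.832), Celsr1 (0.05 ± 0.08, adjusted p = 0.702) and Scrib (0.15 ± 0.06, adjusted p = 0.144) and the surface ectoderm factor Grhl3 (0.01 ± 0.11, adjusted p = 0.968) did not pass.

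Regional and neuronal factors moved in both directions. The share of members past the threshold was 14.3% (Hox), 18.4% (neuronal differentiation), 8.16% (neural progenitor and regional) and 8.11% (neural crest and placode). Of all genes 9.72% passed. Dim members numbered 17, 29, 32 and 16 in these lists. The falling Hoxc13, Neurod2, Nhlh1, Pax5 and Dmbx1 are dim, as are the rising Hoxa2, Insm1, Lhx9, Neurog1 and Pou4f1. The part of the nonspecific level in their changes was not tested. Of 35 Hox genes, which set position along the body axis, 4 rose and 1 fell (median 0.07). Hoxa2, of the hindbrain, was at 6.36, 5.99 and 6.47 in controls and 6.91, 7.24 and 7.04 with MEHP (0.79 ± 0.13, adjusted p = 0.0109). Hoxd3 (0.51 ± 0.12), Hoxd4 (0.50 ± 0.12) and Hoxa9 (0.43 ± 0.12) rose and Hoxc13 fell (-0.47 ± 0.13). Hoxd3 rose in a second probe set too, and Hoxa9's other probe set was at -0.00. Hoxa2 passed in 5 of the 6 fits without 1 array, Hoxd3 and Hoxc13 in 2 and Hoxd4 and Hoxa9 in 1. Of 38 neuronal differentiation genes 4 rose (Insm1, Lhx9, Neurog1 and Pou4f1) and 3 fell (Neurod2, Nhlh1 and Mnx1), with a median of 0.07. Lhx9, a LIM homeobox factor, was at 5.40, 5.59 and 5.77 in controls and 6.53, 6.29 and 6.35 with MEHP (0.80 ± 0.20, adjusted p = 0.0326). A second probe set of Lhx9 rose by 0.86 (0.86 ± 0.15). Lhx9 and Pou4f1 each passed in 1 of the 6 fits without 1 array. Neurog1, a proneural factor of cranial sensory neurons, was at 6.30, 6.16 and 6.31 in controls and 7.23, 7.03 and 6.59 with MEHP (0.70 ± 0.15, adjusted p = 0.0232). It passed in 2 of those fits, and its other probe set was lower with MEHP (-0.27 ± 0.08), short of the threshold. Neurod2, a later neuronal factor, was at 5.81, 5.79 and 5.78 in controls and 5.36, 5.45 and 5.33 with MEHP. This fall (-0.41 ± 0.06, adjusted p = 0.00898) held without each array and in a second probe set. Among 49 neural progenitor and regional factors Sox1 (0.59 ± 0.15) and Sox11 (0.35 ± 0.07) rose and Pax5 (-0.51 ± 0.11) and Dmbx1 (-0.36 ± 0.08) fell (median 0.02). Sox1's other probe set did not pass. In the 6 fits without 1 array Sox1, Sox11, Pax5 and Dmbx1 passed in 2, 3, 2 and 1. Among 37 neural crest and placode genes 3 rose, Pax3 and Prrx1 among them, and 0 fell, with a list median of 0.11. Prrx1, of head mesenchyme and limb, was at 7.78, 7.66 and 7.60 in controls and 8.15, 8.05 and 8.16 with MEHP (0.44 ± 0.07, adjusted p = 0.00992), although 1 of its other probe sets fell (-0.39 ± 0.11).

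Mesoderm lists had 12.1% (somite), 5.41% (heart) and 13.3% (notochord and floor plate) of members past the threshold, against 9.72% of all genes. Among 33 somite and myogenic genes Myf5 rose, while Wnt3a (-0.34 ± 0.09), the sclerotome factor Pax9 (-0.32 ± 0.08) and the somite factor Meox1 (-0.25 ± 0.07) fell, and the later myogenic factors Myod1 (-0.29 ± 0.09, adjusted p = 0.0693) and Myog (-0.06 ± 0.12, adjusted p = 0.767) did not pass (median -0.08). Among 37 heart genes cardiac troponin T, Tnnt2, was at 10.13, 10.12 and 10.17 in controls and 10.55, 10.54 and 10.50 with MEHP. The arrays of each group lay close together, and the rise (0.39 ± 0.07, adjusted p = 0.0164) passed in 3 of the 6 fits without 1 array. The small heat shock protein Cryab, the other heart member past the threshold, rose by 0.58 (0.58 ± 0.15). Notochord and floor plate genes had 1 rise and 1 fall of 15. Krt19, a keratin of simple epithelia, was at 7.48, 7.69 and 7.52 in controls and 8.04, 7.99 and 8.29 with MEHP (0.54 ± 0.10, adjusted p = 0.0138). Slit1, a secreted repellent of axons, was at 6.35, 6.24 and 6.15 in controls and 5.68, 5.77 and 5.65 with MEHP (-0.55 ± 0.08, adjusted p = 0.00684), and both held without each array.

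Extracellular matrix genes were mostly bright, with 3 of 24 basement membrane and 6 of 44 collagen list members dim, and 16.7% and 6.82% passed the threshold, against 9.72% of all genes. Parietal endoderm and basement membrane genes had the highest list median (0.19), with 21 of 24 higher, 3 past the threshold upward (the laminin chains Lamb2 and Lamb1 and the keratin Krt19) and 1 downward (Hspg2). The laminin chain Lamb1 was at 9.47, 9.62 and 9.51 in controls and 9.80, 9.95 and 9.92 with MEHP (0.35 ± 0.07, adjusted p = 0.0215), and 2 further probe sets rose by 0.61 and 0.73. Hspg2, perlecan, fell by 0.35 (-0.35 ± 0.08), but the mean of its probe sets did not pass (0.01, adjusted p = 0.941). Of 44 collagen and mesenchyme genes 3 rose and 0 fell (median 0.03). Col11a1 was at 6.64, 7.05 and 6.81 in controls and 7.65, 7.60 and 7.52 with MEHP (0.76 ± 0.12, adjusted p = 0.0093) and held without each array, although its second probe set (0.17 ± 0.10) did not pass. Col1a1 (0.67 ± 0.19, adjusted p = 0.049) and the PDGF receptor Pdgfrb (0.47 ± 0.11, adjusted p = 0.0281) passed in 1 of the 6 fits each, and the main basement membrane collagen Col4a1 did not pass (0.00 ± 0.10, adjusted p = 0.986).

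In signalling pathways single ligands, receptors and inhibitors changed. Past the threshold were 10.3% (FGF), 10.5% (Hedgehog), 6.38% (BMP and TGF-beta), 3.85% (Notch) and 0% (retinoic acid) of list members, against 9.72% of all genes. Only the Wnt pathway had a share well above that of all genes. None of its members past the threshold passed without each array in turn. Among 29 FGF pathway genes 3 rose and 0 fell (median -0.00). Fgf9, a ligand, was at 5.28, 5.08 and 5.14 in controls and 6.26, 6.30 and 5.93 with MEHP, a 1.99-fold rise (0.996 ± 0.109, adjusted p = 0.00332) that held without each array, while its second probe set was at 0.04. Its receptors Fgfr3 (0.30 ± 0.07) and Fgfr1 (0.24 ± 0.07) rose, and the feedback genes Spry4 (0.51 ± 0.16, adjusted p = 0.0746) and Dusp6 (0.14 ± 0.09, adjusted p = 0.343) did not pass. Of 44 Wnt pathway genes 4 rose and 4 fell (median 0.01). The ligand Wnt5b (0.60 ± 0.10), the receptor Fzd4 (0.65 ± 0.15) and the inhibitors Dkk2 (0.76 ± 0.20) and Wif1 (0.45 ± 0.10) rose. The ligands Wnt2b (-0.40 ± 0.07), Wnt3a, Wnt10a (-0.31 ± 0.07) and Wnt8a (-0.28 ± 0.08) fell. In the 6 fits without 1 array Wnt5b passed in 5 and Wnt2b in 4. Fzd4 passed in 2 of those fits, Dkk2 and Wif1 in 1 and Wnt3a in 0. The pathway's feedback target Axin2 did not pass (0.06 ± 0.09, adjusted p = 0.71). Other probe sets of Wnt5b (-0.04) and Fzd4 (-0.06) did not pass. Control means of Wif1 (3.66) and Wnt2b (3.94) stood beside a nonspecific level of 3.918 to 4.048 on the control arrays. In the Hedgehog pathway 0 of 19 rose and 2 fell (median -0.04). The ligand Dhh fell by 0.44 (-0.44 ± 0.10). The main ligand Shh (-0.21 ± 0.13, adjusted p = 0.327), Ptch1 (-0.04 ± 0.09, adjusted p = 0.814) and Gli1 (-0.07 ± 0.10, adjusted p = 0.668) did not pass. Of 47 BMP and TGF-beta genes Id2, a target, rose (0.26 ± 0.07) and the ligand genes Lefty1 (-0.43 ± 0.09) and Inhbb (-0.36 ± 0.08) fell. Notch2 was the only 1 of 26 Notch pathway genes past the threshold (0.33 ± 0.09), and the mean of its probe sets did not pass (-0.00, adjusted p = 0.981). None of 21 retinoic acid pathway genes passed. Fgf9, Wnt5b, Wif1, Wnt2b, Wnt3a, Dhh, Lefty1 and Inhbb are dim, and the part of the nonspecific level in their changes was not tested.

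Stress, growth and housekeeping lists had from 0% to 11.1% of members past the threshold, against 9.72% of all genes. Of 35 amino acid and unfolded protein stress genes the serine synthesis enzyme Psat1 (0.46 ± 0.11) and the translation inhibitor Eif4ebp1 (0.38 ± 0.09) rose. Each passed in 1 of the 6 fits without 1 array. Psat1's other probe set was at -0.11 and Eif4ebp1's at -0.05 and -0.16, none past the threshold. The sensor Atf6 fell (-0.29 ± 0.08) but passed in 0 of those fits, and another of its probe sets rose (0.24 ± 0.07, adjusted p = 0.0458). In this list Ddit3 (-0.02 ± 0.06, adjusted p = 0.839), Atf4 (-0.10 ± 0.08, adjusted p = 0.437) and Asns (-0.15 ± 0.12, adjusted p = 0.457) did not pass. Cryab and the constitutive chaperone Hspa8 (0.28 ± 0.06) were the rises among 20 heat shock genes. Among 38 p53 target and apoptosis genes Sesn1 (0.69 ± 0.15) and Gadd45a (0.34 ± 0.09) rose, in 3 and 1 of the 6 fits without 1 array. Sesn1's other probe sets were at -0.03, 0.15 and 0.06, none past the threshold. Cdkn1a (0.01 ± 0.13, adjusted p = 0.959) and Mdm2 (-0.02 ± 0.07, adjusted p = 0.893) did not pass. The cycling gene Mki67 (0.29 ± 0.08) and the replication helicase subunit Mcm4 (0.27 ± 0.06) rose among 41 cell cycle genes. Each passed in 1 of the 6 fits without 1 array, and Mcm4's other probe set was at -0.01. Antioxidant genes had 0 rises and 2 falls of 33, the extracellular dismutase Sod3 (-0.41 ± 0.10) and the cystine transporter Slc7a11 (-0.33 ± 0.07). Each passed in 1 of the 6 fits without 1 array, and other probe sets of Sod3 (-0.13) and Slc7a11 (-0.10) did not pass. The control mean of Slc7a11 (3.89) lay below the nonspecific level of the control arrays (3.918 to 4.048). The inducible haem oxygenase Hmox1 did not pass (0.25 ± 0.11, adjusted p = 0.157). Of 31 folate and one-carbon genes 1 rose and 1 fell, the latter Aldh1l2, and of 24 DNA methylation and demethylation genes Gadd45g (0.40 ± 0.08) and Gadd45a rose. Among 45 imprinted genes Kcnq1ot1, Peg12 (0.79 ± 0.19) and the noncoding Mirg (0.62 ± 0.12) rose and Slc22a2 (-0.59 ± 0.12) and Copg2 (-0.24 ± 0.07) fell, while H19 (-0.06 ± 0.07, adjusted p = 0.59) and Igf2 (-0.12 ± 0.08, adjusted p = 0.339) did not pass. In 5 lists 0 members passed by limma: 43 cytosolic ribosomal protein genes, 42 of the respiratory chain, 36 of hypoxia and glycolysis, 30 of sterol and fatty acid synthesis and 21 of the retinoic acid pathway, whose medians lay between -0.03 and 0.02.

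Markers of other cell types were as follows. The share of members past the threshold was 7.32% (visceral endoderm), 3.45% (blood and globin), 13.3% (macrophage and myeloid) and 18.5% (trophoblast and decidua). It was 2.56% for endothelial and vessel genes and 12.5% for gut endoderm genes. Of all genes 9.72% passed, and their median change was -0.04. Of 41 visceral endoderm genes 1 rose (Lrp2) and 2 fell, the plasma protein gene Apoh (-0.86 ± 0.13, adjusted p = 0.00847), which held without each array, and Entpd2 (-0.52 ± 0.12), while Afp (0.71 ± 0.71, adjusted p = 0.543), Ttr (0.66 ± 0.96, adjusted p = 0.683) and Cubn (0.81 ± 0.72, adjusted p = 0.492) had wide errors, and the summed level of such markers was highest in control 2 and MEHP 3. Of 29 blood and globin genes 25 were lower and 1 fell, Hba-a1, which has a near-identical copy (median -0.17), and the abundant embryonic globins Hba-x (-0.18 ± 0.17, adjusted p = 0.517) and Hbb-y (-0.09 ± 0.15, adjusted p = 0.723) did not pass. In bulk samples fewer cells of a type and less RNA per cell cannot be told apart. Of 30 macrophage and myeloid genes Csf2rb, Mpo (-0.36 ± 0.09) and Cd14 (-0.32 ± 0.09) fell, Lcp1 rose (0.94 ± 0.21) and 24 were lower (median -0.14), with 23 dim. Mpo and Cd14 passed in 0 of the 6 fits without 1 array and Lcp1 in 1, and Lcp1's other probe set was at -0.06. The defining macrophage markers Adgre1 and Cx3cr1 lay within 1 log2 unit of the nonspecific level, and the summed level of the 3 markers was 6.39 to 6.51 in controls and 6.12 to 6.36 with MEHP. Of 27 trophoblast and decidua genes 0 rose and 5 fell (Prl7b1, Eomes, Psg21, Pgr and Ctsj, median -0.16), with 22 dim and 3 of 4 defining markers within 1 log2 unit of the nonspecific level. Among 39 endothelial and vessel genes Fli1 rose (0.63 ± 0.16) and the others did not pass. Of 16 gut endoderm genes Trh (-0.37 ± 0.09) and Pdx1 (-0.34 ± 0.07) fell.

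**Figure D4:**
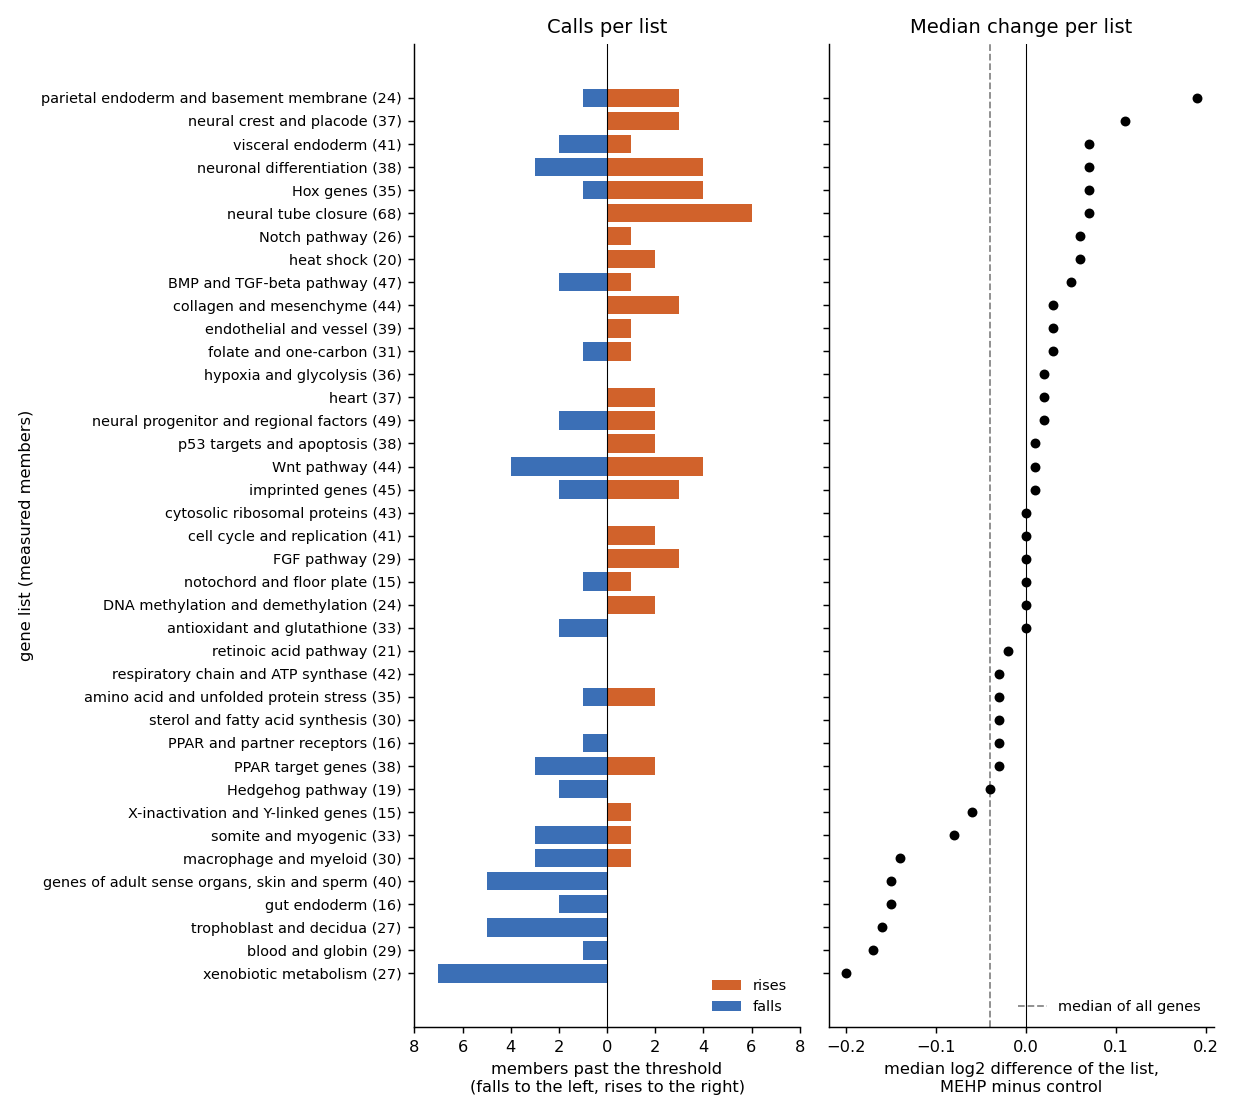
For each of 39 gene lists (number of measured members in brackets), the left panel gives the members that rose or fell past the threshold and the right panel the median log2 difference of the list, with a dashed line at the median of all genes (-0.04). The lists at the foot, from xenobiotic metabolism (-0.20) up to macrophage genes (-0.14), hold falls and almost no rises. From 3.45% (blood) to 25.9% (xenobiotic metabolism) of their members passed, against 9.72% of all genes. Neural tube closure genes hold 6 rises and 0 falls (8.82%).

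The exposed embryos with NTD share the control arrays with this comparison, so their values are given beside it and not tested against it. Kcnq1ot1 was at 8.30, 8.54 and 8.38 on those arrays, Snhg3 between 9.10 and 9.24 and D10Ertd755e at 6.96, 6.72 and 6.66, in each case above every control. Lhx9 was at 4.70, 4.18 and 5.13 and thus below every control, whereas it was above every control without NTD. Insm1 (5.45, 6.43 and 6.31), Myf5 (5.07, 5.50 and 5.53) and Aldh1l2 (5.67, 6.78 and 6.34) overlapped the controls. In the authors' deposited table, which pools embryos with and without NTD in 6 exposed against 4 control arrays, 9067 of 45141 probe sets have an adjusted p below 0.05. In the authors' deposited table Kcnq1ot1 has a log2 difference of 1.61, Creb3l3 of -0.97 and Insm1 of 0.53 (adjusted p = 0.269).

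Whether a gene responded alike in embryo and yolk sac was asked by testing the difference between the embryo change and the yolk sac change, both without NTD. Yolk sacs had 65 genes past the threshold (0.313%), of which 34 also passed in embryos. The difference itself passed for 16 genes (0.0769%), 6 with a higher and 10 with a lower change in embryos, and all 16 are named here. Of the 6, Fgf9 was at 4.02, 4.21 and 4.07 in control and 4.05, 4.28 and 4.05 in exposed yolk sacs, so its rise was not seen there (difference between the changes 0.97 ± 0.17, adjusted p = 0.0425). Myh3, the embryonic myosin heavy chain, was at 5.002, 4.99 and 5.12 in control and 6.14, 5.89 and 6.09 in exposed embryos, and at a mean of 4.51 in control and 4.68 in exposed yolk sacs (difference 0.84 ± 0.11, adjusted p = 0.00786). The Slit receptor Robo2, with 3.63, 4.08 and 3.60 in control and 4.74, 4.79 and 4.93 in exposed embryos, stood at a mean of 3.23 in control and in exposed yolk sacs (difference 1.05 ± 0.16, adjusted p = 0.0207). Dock4, a Rac activator (0.89 ± 0.15), 4732423E21Rik (1.198 ± 0.209) and D10Ertd755e (1.87 ± 0.25) differed in the same direction. How many of the 16 passed depended on single arrays. The difference passed for 4, 12 and 16 of them without embryo controls 1, 2 and 3, and for 10, 3 and 7 without embryo MEHP 1, 2 and 3. It passed for 4, 3 and 5 without yolk sac controls 1, 2 and 3, and for 7, 3 and 3 without yolk sac MEHP 1, 2 and 3.

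The 10 genes with a lower change in embryos included genes of drug, lipid and plasma protein biology. Cyp1a1, a target of the aryl hydrocarbon receptor, was at 4.10, 3.94 and 4.15 in control and 3.66, 3.86 and 3.73 in exposed embryos, but at 4.54, 4.72 and 4.32 in control and 6.49, 6.58 and 6.30 in exposed yolk sacs. The groups did not overlap in either tissue, with a fall of 0.31 near the nonspecific level in embryos and a rise of 1.93 in yolk sacs (difference -2.25 ± 0.17, adjusted p = 8.11e-06). Creb3l3 was at 8.73, 8.80 and 8.63 in control and 8.74, 8.96 and 8.79 in exposed yolk sacs, so its fall was not seen there (difference -1.33 ± 0.20, adjusted p = 0.0207). Cidec, a lipid droplet gene, did not pass in embryos (-0.14 ± 0.09, adjusted p = 0.33) and rose by 1.22 in yolk sacs (difference -1.36 ± 0.22). Coagulation factor X, F10 (-0.46 ± 0.11 in embryos and 0.57 ± 0.14 in yolk sacs), and the liver protease hepsin, Hpn (-0.58 ± 0.09 and 0.35 ± 0.11), fell in embryos and did not pass in yolk sacs. A2ml1 fell in embryos (-0.51 ± 0.14) and rose in yolk sacs (0.60 ± 0.08), as did Mir1199 (-0.59 ± 0.15 and 0.63 ± 0.10). The embryo falls of Cyp1a1, A2ml1 and F10 each passed in 1 of the 6 fits without 1 array, and that of Mir1199 in 2. Embryo control means of A2ml1 (4.36) and F10 (4.47) lay near the nonspecific level of 3.918 to 4.048, which was itself lower with MEHP. Its part in these falls was not tested. Tmem144, Thsd7b and 4933428C20Rik fell in embryos and did not pass in yolk sacs. Of the 10 genes, control 2 was the highest embryo control for A2ml1 and 4933428C20Rik only, and MEHP 3 the highest exposed embryo array for Creb3l3, A2ml1 and Hpn only. The part of visceral endoderm in the difference was not tested. Treating embryos and yolk sacs as independent, the test leaves out that both may come from the same conceptuses.

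**Figure D5:**
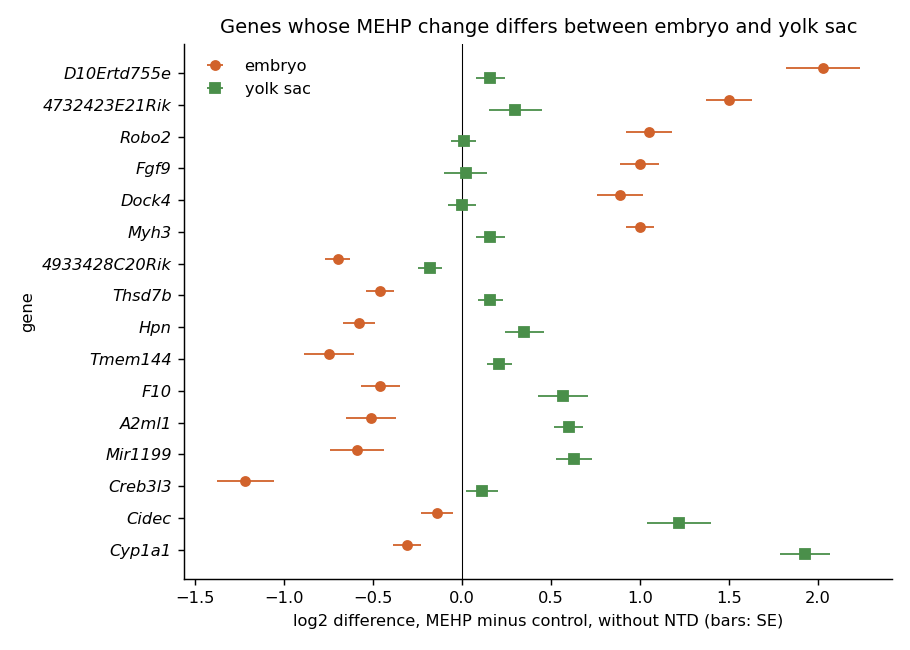
Log2 difference (MEHP minus control, without NTD) in embryos and in yolk sacs, with bars of 1 SE, for the 16 genes whose change differs between the tissues. Rises in embryos stand beside yolk sac values close to 0 for Fgf9, Robo2 and Dock4, and Cyp1a1 and Cidec rise by 1.93 and 1.22 in yolk sacs.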

How the data were processed

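RNA of mouse embryos and yolk sacs was measured on 20 Affymetrix arrays. The deposited log2 values of 45141 probe sets were made with RMA, per the submitters' processing notes, which also name limma and R 2.15.1. The deposited p-values and log2 differences come from the authors' own comparison tables, which pool embryos with and without NTD. RMA was not rerun.

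Control probe sets (104) and those that name no gene (6670) were dropped, and the brightest probe set over the 20 arrays stood for each of 20794 genes. Symbols were updated by Entrez identifier for 35403 probe sets. With limma 3.58.1 in R 4.3.3, 1 mean per group was fitted over the 10 embryo arrays in 4 groups, so that exposed embryos with NTD add to the estimate of spread and the single control embryo with NTD does not. Benjamini-Hochberg adjustment ran over all genes, and genes with an adjusted p below 0.05 were called. Errors are limma's standard errors. The difference between tissues was fitted over all 20 arrays in 8 groups. The median standard error of a gene was 0.0893, and the number of arrays limits the precision. On simulated data of this design the fit recovered 60% of genes moved by 0.5 log2 units and 94% of those moved by 1. Of 20594 unchanged genes 5 were called. The simulated noise was independent from gene to gene, and no shift common to an array was put in. On the real arrays the nonspecific level separates the groups, so these figures do not give the rate of false calls among the genes reported here.

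Genes were named as the 12 largest rises and falls with a gene name and above the median gene, the 3 largest of all, and up to 6 members past the threshold in each of 39 lists. Some genes this rule takes are not reported here. Others were added to describe a list, and all 16 genes that differ between tissues are named. Of 1331 list members 1302 were measured. Members, lists and naming were chosen with earlier results of these data known. Alternatives were quantile and cyclic loess normalization, leaving out dim genes, other uses of probe sets, other variance models, a covariate for the nonspecific level, other sets of arrays and each array left out. Promoters are RefSeq's. Figures were drawn with matplotlib 3.10.9.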

Additional observations from a re-analysis of the deposited data

Results flagged for a closer look

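The MEHP change differed between embryo and yolk sac, by the test of the difference itself, for 16 genes. The difference (embryo change minus yolk sac change, log2) was -2.25 for Cyp1a1, -1.36 for Cidec, -1.33 for Creb3l3, -1.21 for Mir1199, -1.11 for A2ml1, -1.03 for F10 and -0.96 for Tmem144. It was -0.93 for Hpn, -0.62 for Thsd7b and -0.53 for 4933428C20Rik. It was above 0 for 6 genes, with 0.84 for Myh3, 0.89 for Dock4, 0.97 for Fgf9, 1.05 for Robo2, 1.198 for 4732423E21Rik and 1.87 for D10Ertd755e. As each embryo or yolk sac array of the comparison was left out, the difference passed for 3 to 16 of these 16 genes.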

How the results depend on the processing

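The count of 2021 genes was 1138 after cyclic loess, 488 without dim genes, 4053 of 38367 with every probe set tested by itself, 3439 with all 20 arrays in the fit, 47 against a minimum change of 0.25, and 0 with the nonspecific level as a covariate (1522 at an unadjusted p below 0.05 by limma). It ranged from 286 (without MEHP 2) to 2493 (without control 3) as each array was left out, with 612 and 1072 without controls 1 and 2 and 549 and 414 without MEHP 1 and 3. Without both control 2 and MEHP 3, an alternative chosen after seeing the data, it was 169. Quantile normalization (1729), the mean of a gene's probe sets (2760), other variances (2279) and the 6 arrays alone (1593) kept it within 1.5 times. The 16 genes that differ from yolk sac became 10 (quantile), 3 (without dim genes), 45 (mean of probe sets) and 76 (every probe set), and 3 to 259 as each array was left out, with 259 without control 3. Of 121 named genes the sign turned for Sox1 (-0.04) and Lcp1 (-0.04) with the covariate, and for Pax9 (0.04), Hspg2 (0.01) and Notch2 (-0.00) with the mean of probe sets. The causes were not tested. With 3 arrays a group and dim genes near nonspecific signal, small falls are the least certain. No paired analysis was possible because the array columns carry no replicate number.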
